A study of Homo sapiens with 9 samples.

Results

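A set of 9 genes of deoxynucleotide supply and of fluoropyrimidine handling was followed by name through the count files: TYMS, TK1, RRM1, RRM2, RRM2B, DUT, TYMP, UPP1 and DPYD. They are 9 of the 60683 genes counted, each was found once, and none was lost to the low-count filter. All libraries came from a human line labelled HCT-15, described as a colorectal adenocarcinoma line and as wild type. In 3 libraries the cells had been adapted to oxaliplatin, a platinum drug that binds DNA, in 3 to sorafenib, an inhibitor of RAF and of several receptor tyrosine kinases, and 3 libraries were untreated. Oxaliplatin was started at 0.5 µM for 7 days, stepped up through 1, 2 and 4 µM between day 10 and day 30 and then held at 4 µM, and sorafenib was applied in a similar way at doses not stated in the labels. The labels name no fluoropyrimidine among the treatments. The titles give the 3 libraries of each group the same library code and nothing states that they were separate cultures, so every p-value rests on a spread that may be technical only.

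Cells make thymidylate along a pair of routes. Thymidylate synthase (TYMS) methylates dUMP, and thymidine kinase 1 (TK1) phosphorylates thymidine taken up from outside, while dUTPase (DUT) turns dUTP into dUMP and keeps uracil out of DNA. Ribonucleotide reductase, made of the catalytic subunit RRM1 with either RRM2, the small subunit of S phase, or RRM2B, the damage-inducible small subunit that serves repair and cells outside S phase, reduces ribonucleotides to deoxynucleotides. Thymidine phosphorylase (TYMP) and uridine phosphorylase 1 (UPP1) split nucleosides into base and sugar phosphate and can also add a sugar phosphate to fluorouracil, and dihydropyrimidine dehydrogenase (DPYD) starts pyrimidine breakdown and clears most fluorouracil in the body. Fluorouracil, a drug often combined with oxaliplatin in colorectal cancer, acts in part by blocking TYMS.

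The libraries held 15797076 to 20936536 counts. Correlations across genes of log2 CPM (counts scaled to a common library size), which are not independent replicates, were 0.967 to 0.975 within groups, and untreated 1 correlated more with sorafenib 1 (0.972) than with the other untreated libraries (0.967 and 0.968). The label of the line was not borne out by its markers: 16 of 20 genes of colorectal epithelium had a median under 1 CPM and 11 of them, among them CDX2 and CDH1, had no count in any library, while 4 had a median of at least 10 CPM. Of 22 genes of renal epithelium 10 had a median of at least 10 CPM, 7 had one under 1 CPM and 3 had no count in any library. All titles also carry a number that the labels do not explain. The renal genes summed to 1188 to 1204 CPM in oxaliplatin, 1068 to 1272 CPM in sorafenib and 756 to 1057 CPM in untreated libraries, and the colorectal ones to 986 to 1145, 1177 to 1515 and 1415 to 1830 CPM in the same groups. The colorectal sums rest mainly on the 4 genes with a median of at least 10 CPM, in a list that includes KRT8 and KRT18. The sums of these lists, which hold different genes, are therefore no measure of which tissue the cells resemble. Immune markers summed to 21.8 to 59.1 CPM in oxaliplatin, 18.9 to 51.2 CPM in sorafenib and 27.1 to 49.5 CPM in untreated libraries, and the sums of fibroblast and endothelial markers were 17.1 to 25.0, 4.29 to 5.05 and 12.1 to 49.0 CPM. PTPRC, CD3D, COL3A1 and VWF had no count in any library, and a median below 1 CPM was found for 18 of 20 immune markers and for 14 of 16 of the fibroblast and endothelial list. The part of any of these markers in the results was not tested. In bulk RNA such as this, fewer cells that express a gene and less RNA per cell cannot be told apart.

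Promoter sequence of the genes that serve S phase is shown because E2F factors and the CCAAT-binding factor NF-Y are known regulators of this class. The RefSeq promoter table (GRCh38.p14) held 17 windows for 8 of the 9 genes and none was matched for RRM2B. The 250 bases before each start were searched on both strands for the E2F words TTTGGCGC, TTTGCCGC, TTTCGCGC and TTTCCCGC and for CCAAT. These words do not overlap each other in the windows printed here, which run 5′ to 3′ and have the matches in capitals, as the reverse complement (such as ATTGG) where the word lies on the other strand. For genes with several annotated starts the window with the most matches was chosen. The RRM2 window not printed also held CCAAT, at 249 to 245 bases before its start.
TYMS, chr18:657403-657652, plus strand: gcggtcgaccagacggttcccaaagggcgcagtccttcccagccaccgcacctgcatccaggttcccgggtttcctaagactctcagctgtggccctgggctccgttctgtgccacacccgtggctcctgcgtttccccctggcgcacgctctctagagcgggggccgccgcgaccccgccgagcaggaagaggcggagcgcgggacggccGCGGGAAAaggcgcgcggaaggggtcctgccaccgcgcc
DUT, chr15:48331947-48332196, plus strand: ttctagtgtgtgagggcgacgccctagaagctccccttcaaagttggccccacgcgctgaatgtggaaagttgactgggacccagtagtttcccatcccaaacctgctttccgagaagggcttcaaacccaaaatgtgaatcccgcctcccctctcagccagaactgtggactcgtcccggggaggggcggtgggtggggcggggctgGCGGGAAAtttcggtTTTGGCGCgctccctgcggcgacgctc
TK1, chr17:78187053-78187302, minus strand: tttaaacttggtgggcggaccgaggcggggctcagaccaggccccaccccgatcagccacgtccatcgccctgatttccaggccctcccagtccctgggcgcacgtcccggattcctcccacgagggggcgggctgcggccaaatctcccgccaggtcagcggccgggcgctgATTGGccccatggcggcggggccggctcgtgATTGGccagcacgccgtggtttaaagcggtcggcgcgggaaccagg
RRM1, chr11:4094435-4094684, plus strand: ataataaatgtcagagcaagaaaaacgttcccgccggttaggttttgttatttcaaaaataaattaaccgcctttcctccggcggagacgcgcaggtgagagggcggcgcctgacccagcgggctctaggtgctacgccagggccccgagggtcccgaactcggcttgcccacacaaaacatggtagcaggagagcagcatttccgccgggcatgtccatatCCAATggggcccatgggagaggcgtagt
RRM2, chr2:10122489-10122738, plus strand: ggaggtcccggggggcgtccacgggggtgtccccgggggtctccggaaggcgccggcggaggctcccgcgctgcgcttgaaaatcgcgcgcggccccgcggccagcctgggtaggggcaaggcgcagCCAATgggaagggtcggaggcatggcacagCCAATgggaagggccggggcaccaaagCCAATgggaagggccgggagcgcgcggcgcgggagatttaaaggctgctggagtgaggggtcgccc
An E2F word occurred in 1 window each of TYMS and DUT, 2 of the 17 windows, against 2.79% of 35116 windows of all genes. In TYMS it lay 39 to 32 bases before the start, and DUT held a pair of them, at 42 to 35 and 27 to 20 bases. CCAAT was found for 4 genes (TK1, RRM1, RRM2 and TYMP), in 6 of 17 windows, against 32% of all windows. There were 3 copies in the RRM2 window shown and 2 in that of TK1. The windows of TYMP, which are not printed, held it at 39 to 35 and at 112 to 108 bases before the respective start. A match of letters is a description and shows no binding, and the windows of UPP1 and DPYD held neither motif.

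Per length, the transcripts of thymidylate synthesis and salvage were the most abundant of the 9 in every group. TK1 stood at 48.9 ± 2.57 CPM per kilobase of exon in oxaliplatin, 56.8 ± 8.90 in sorafenib and 111 ± 12.2 in untreated libraries (mean ± SD, n = 3 each, as below). TYMS came next at 47.0 ± 2.81, 55.5 ± 2.45 and 82.4 ± 7.74 CPM per kilobase, and its libraries overlapped with those of TK1 in both drug groups but not in untreated cells. RRM1 was the third in every group, at 27.6 ± 1.92, 33.0 ± 2.10 and 43.6 ± 5.03 CPM per kilobase, and overlapped with the next gene in sorafenib (UPP1) and in untreated libraries (DUT). The order below it differed between groups. UPP1 was the fourth in sorafenib (28.8 ± 3.15 CPM per kilobase), the fifth in untreated (18.9 ± 4.51) and the seventh in oxaliplatin libraries (6.46 ± 0.506), where it overlapped with DPYD (7.07 ± 0.469) and RRM2 (5.19 ± 1.60). TYMP was the lowest in every group, at 1.21 ± 0.180, 1.52 ± 0.734 and 1.60 ± 0.594 CPM per kilobase, and overlapped with DPYD in sorafenib and untreated libraries. Exon lengths are those of GENCODE release 29, which gives RRM2 an end near base 10131419 of chromosome 2 where the count files give 10211725, so the per-length level of RRM2 is uncertain.

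**Figure D1:**
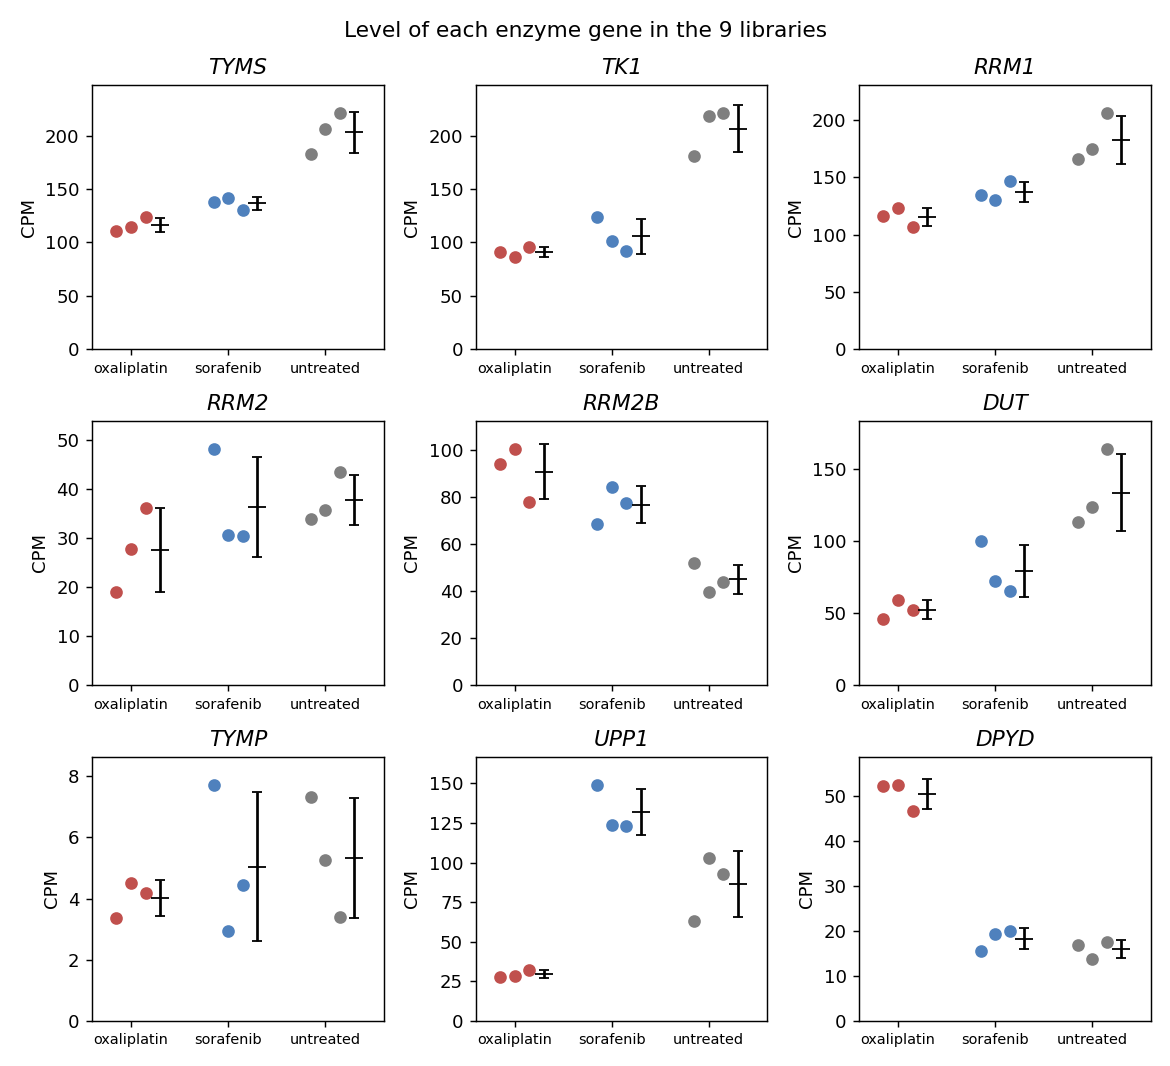
CPM of the 9 genes (y axis, from 0, with its own range per panel) in oxaliplatin, sorafenib and untreated libraries; coloured points are libraries 1 to 3 and black bars the mean ± SD. DPYD sits at 46.6 to 52.5 CPM in oxaliplatin against 13.7 to 17.6 CPM in untreated libraries, and UPP1 at 27.9 to 32.2 CPM in oxaliplatin, 123 to 149 CPM in sorafenib and 63.1 to 103 CPM in untreated libraries.

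In oxaliplatin-adapted cells 5 of the 9 genes fell and 2 rose, while RRM2 and TYMP did not pass the test. Of all 16159 genes tested, 31.7% were called, 15.5% lower and 16.2% higher. A call means a Benjamini-Hochberg adjusted p below 0.05 in edgeR's quasi-likelihood test, the source of every adjusted p given here. The median log2 fold change was -0.66 over the 9 genes and 0.016 over all genes. The groups did not overlap for 7 of the 9 genes, against 48.1% of all genes. The number of genes called among all genes, 5123, became 2945 and 3293 without untreated 2 and 3 and 2913 and 3311 without oxaliplatin 1 and 2, and the same 7 of the 9 genes were called under each of the 17 alternatives tried.

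Of the thymidylate genes, TK1 (chr17:78174091-78187233, GRCh38, ENSG00000167900) had 91.1, 86.2 and 95.7 CPM in oxaliplatin 1 to 3, 124, 101 and 91.8 CPM in sorafenib 1 to 3 and 181, 218 and 221 CPM in untreated 1 to 3. All 6 drug-adapted libraries lay below all 3 untreated ones. The log2 fold change was -1.18 ± 0.13 (SE, adjusted p = 0.00114) in oxaliplatin and -0.97 ± 0.13 (adjusted p = 0.00604) in sorafenib. TYMS (chr18:657653-673578, ENSG00000176890) had 111, 114 and 124 CPM in oxaliplatin, 138, 142 and 130.3 CPM in sorafenib and 183, 206 and 221 CPM in untreated libraries, so that the 3 groups lay apart without overlap. It fell by 0.81 ± 0.10 on the log2 scale in oxaliplatin (adjusted p = 0.00148) and by 0.57 ± 0.10 in sorafenib (adjusted p = 0.0193). Exons of ENOSF1 on the other strand cover 39.1% of the exon bases of TYMS, and since the strand setting of the counting is not given in the sources used here, the reads of the pair may not be separated. ENOSF1 stood at 73.1 ± 8.29 CPM in oxaliplatin, 94.7 ± 2.92 CPM in sorafenib and 99.9 ± 5.39 CPM in untreated libraries, a log2 fold change of -0.45 ± 0.11 (adjusted p = 0.0125) in oxaliplatin and -0.08 ± 0.11 (adjusted p = 0.694) in sorafenib. The part of shared reads in the TYMS result was not tested.

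DUT, whose product also feeds dUMP to thymidylate synthase (chr15:48331011-48343373, ENSG00000128951), had 46.0, 59.0 and 51.9 CPM in oxaliplatin, 99.9, 72.0 and 65.6 CPM in sorafenib and 113, 124 and 164 CPM in untreated libraries. The 3 groups did not overlap. Its log2 fold change in oxaliplatin, -1.35 ± 0.19 (adjusted p = 0.00198), lay between those of TK1 and UPP1. In sorafenib it was -0.75 ± 0.19 with an adjusted p of 0.0520, which was 0.00952 with DESeq2, 0.0368 with no filter on low counts, 0.0420 after correcting for GC and gene length, 0.0353 without untreated 1 and 0.0200 without sorafenib 1, and 0.19 at the highest of 17 alternatives. The 8 DUT pseudogenes in the files reached at most 0.963 CPM. Exons of the antisense gene AC023355.1 cover 14.5% of the exon bases of DUT, which leaves its counts uncertain where strand was not used.

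The subunits of ribonucleotide reductase did not move together. RRM1 (chr11:4094707-4138932, ENSG00000167325) had 116, 123 and 107 CPM in oxaliplatin, 135, 130.3 and 147 CPM in sorafenib and 166, 175 and 206 CPM in untreated libraries, with no overlap between any of the groups. It fell by 0.66 ± 0.11 on the log2 scale in oxaliplatin (adjusted p = 0.00373), and in sorafenib its log2 fold change was -0.40 ± 0.11 (adjusted p = 0.0651, with 0.0271 to 0.231 over 17 alternatives and 0.0415 without untreated 1). RRM2 (chr2:10120698-10211725, ENSG00000171848) had 19.0, 27.8 and 36.1 CPM in oxaliplatin, 48.2, 30.6 and 30.4 CPM in sorafenib and 33.9, 35.7 and 43.5 CPM in untreated libraries. Its groups overlapped, and the log2 fold changes of -0.45 (95% interval -1.01 to 0.11, adjusted p = 0.194) in oxaliplatin and -0.05 (-0.61 to 0.51, adjusted p = 0.925) in sorafenib had intervals that include both signs. RRM2 shares 20.2% of its exon bases with AC007240.1 on the same strand, so its counts are uncertain. Over the 17 alternatives its log2 fold change in oxaliplatin was -0.68 to -0.24. RRM2B (chr8:102204502-102238961, ENSG00000048392) had 94.2, 100.4 and 77.8 CPM in oxaliplatin, 68.5, 84.2 and 77.5 CPM in sorafenib and 51.8, 39.5 and 43.8 CPM in untreated libraries. Every drug-adapted library was above every untreated one, with log2 fold changes of 1.01 ± 0.14 (adjusted p = 0.00196) and 0.77 ± 0.14 (adjusted p = 0.0222). Over the 17 alternatives these were 0.72 to 1.13 in oxaliplatin and 0.60 to 0.88 in sorafenib.

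The RRM2B share of the small-subunit transcripts, as RRM2B over RRM2 plus RRM2B in CPM per kilobase, was 82.6, 77.6 and 67.4% in oxaliplatin, 57.7, 72.5 and 71.0% in sorafenib and 59.4, 51.5 and 49.1% in untreated libraries. All oxaliplatin values were above all untreated ones, while sorafenib 1 lay within the untreated range. The difference of oxaliplatin from untreated was 22.5 percentage points (75.9 ± 7.74 against 53.3 ± 5.41%, exact permutation test, two-sided p = 0.10, the smallest that 3 against 3 libraries allow). That of sorafenib was 13.7 percentage points (67.1 ± 8.15 against 53.3 ± 5.41%, exact permutation test, two-sided p = 0.20). Neither design could reach 0.05. The counts and the exon length of RRM2 are uncertain, as above, so the level of this share is uncertain in every group. With counts not divided by length the differences were 22.2 percentage points in oxaliplatin and 13.6 in sorafenib, which leaves the uncertain counts as they are.

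**Figure D2:**
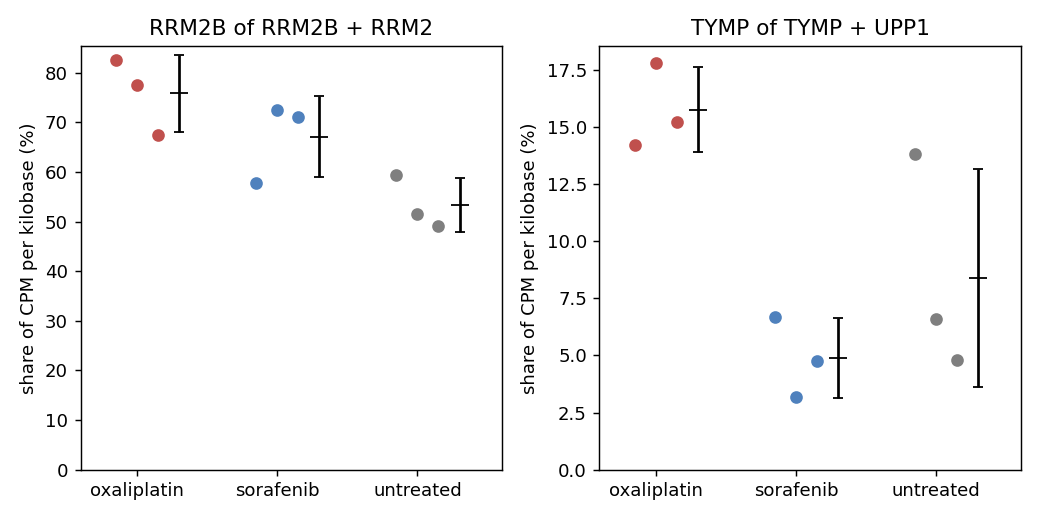
Share of RRM2B in RRM2B plus RRM2 (left) and of TYMP in TYMP plus UPP1 (right), in percent of CPM per kilobase (y axes from 0), in oxaliplatin, sorafenib and untreated libraries; points are libraries 1 to 3 and black bars the mean ± SD. The RRM2B share is 67.4 to 82.6% in oxaliplatin against 49.1 to 59.4% in untreated libraries. The counts of RRM2 and TYMP and the exon length of RRM2 are uncertain, and so are both shares.

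Among the enzymes that act on pyrimidine bases and nucleosides, DPYD and UPP1 showed the widest differences. DPYD (chr1:97077743-97995000, ENSG00000188641) had 52.3, 52.5 and 46.6 CPM in oxaliplatin, 15.6, 19.4 and 19.9 CPM in sorafenib and 16.8, 13.7 and 17.6 CPM in untreated libraries. The oxaliplatin libraries stood apart from the other 6, which overlapped. Exons of MIR137HG on the same strand cover 6.93% of the exon bases of DPYD. DPYD was 3.14-fold higher in oxaliplatin than in untreated libraries (log2 fold change 1.65 ± 0.14, adjusted p = 0.000546), and in sorafenib its log2 fold change was 0.19 (95% interval -0.13 to 0.51, adjusted p = 0.438). The enzymes that follow DPYD in pyrimidine breakdown were near or below detection: DPYS reached at most 0.0587 CPM and UPB1 had no count in any library, where 3 counts correspond to 0.138 to 0.183 CPM.

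UPP1 (chr7:48088628-48108736, ENSG00000183696) had 27.9, 28.6 and 32.2 CPM in oxaliplatin, 149, 124 and 123 CPM in sorafenib and 63.1, 103 and 92.9 CPM in untreated libraries. The 3 groups were fully separate, with untreated cells between the drugs and untreated 1 the lowest of its group. UPP1 fell by 1.55 ± 0.18 on the log2 scale in oxaliplatin (adjusted p = 0.00114). In sorafenib the log2 fold change was 0.61 ± 0.17 (adjusted p = 0.0659), and 2 of 17 alternatives called it, DESeq2 (adjusted p = 0.0257) and scaling by library size only (0.0468), with 0.169 as the highest value. TYMP (chr22:50525752-50530032, ENSG00000025708) had 3.35, 4.50 and 4.19 CPM in oxaliplatin, 7.72, 2.95 and 4.45 CPM in sorafenib and 7.33, 5.25 and 3.39 CPM in untreated libraries. Its groups overlapped, with log2 fold changes of -0.41 (95% interval -1.23 to 0.42, adjusted p = 0.424, and -0.65 to -0.11 over 17 alternatives) and -0.08 (-0.89 to 0.74, adjusted p = 0.922). On the same strand, exons of SCO2 cover 10.2% and those of ODF3B 10.5% of the exon bases of TYMP, so its counts are uncertain. SCO2 was at 8.65 ± 2.22 CPM in oxaliplatin, 7.95 ± 1.51 CPM in sorafenib and 5.57 ± 0.261 CPM in untreated libraries. ODF3B reached at most 0.365 CPM, in oxaliplatin 3.

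TYMP made up 14.2, 17.8 and 15.2% of the summed TYMP and UPP1 transcripts per length in oxaliplatin, 6.68, 3.18 and 4.74% in sorafenib and 13.8, 6.58 and 4.80% in untreated libraries. UPP1 was thus the larger part in every library, though the counts of TYMP are uncertain, as above. The oxaliplatin share lay above the untreated one by 7.35 percentage points (15.7 ± 1.89 against 8.39 ± 4.77%, exact permutation test, two-sided p = 0.10, the smallest possible), and untreated 1 was nearly as high as oxaliplatin 1. The sorafenib share differed by -3.53 percentage points (4.86 ± 1.75 against 8.39 ± 4.77%, exact permutation test, two-sided p = 0.40), and by -0.824 without untreated 1 and -5.33 without untreated 3.

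**Figure D3:**
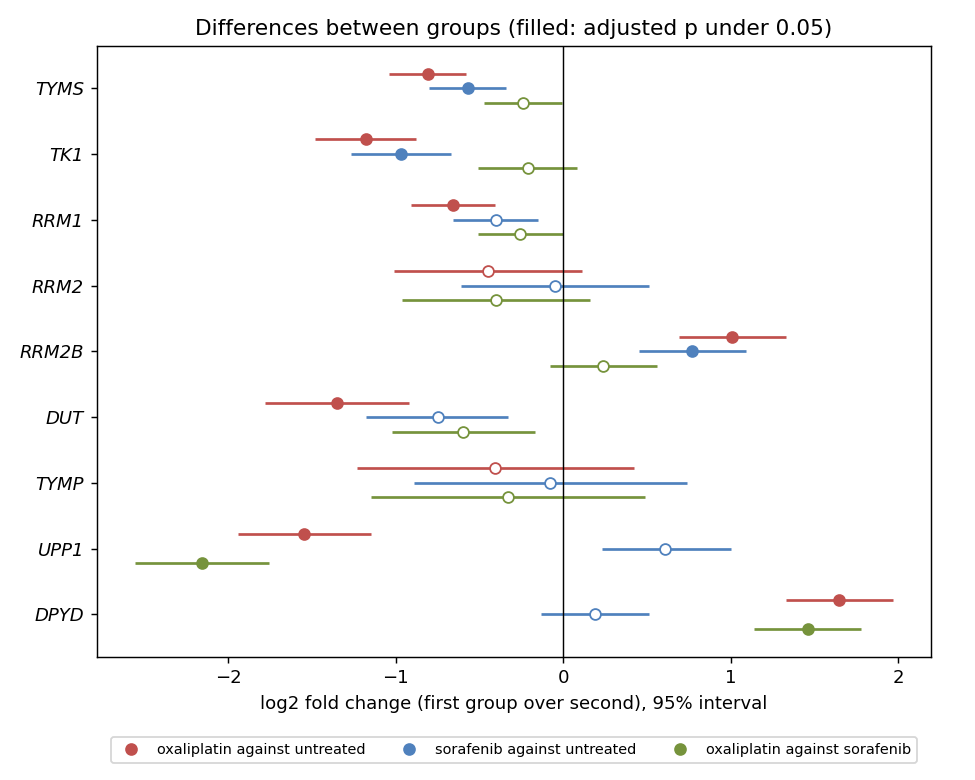
Log2 fold change (x axis) of the 9 genes (rows) with 95% intervals for both drugs against untreated and for the drugs against each other; filled points have an adjusted p under 0.05. UPP1 is at -1.55 in oxaliplatin and 0.61 in sorafenib, and DPYD at 1.65 and 0.19.

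In sorafenib-adapted cells 3 of the 9 genes were called, TK1 and TYMS lower and RRM2B higher, against 4.80% of all genes (1.97% lower and 2.82% higher). The median log2 fold change over the 9 genes was -0.08, and the groups did not overlap for 6 of them, against 29.8% of all genes. The calls of TYMS and RRM2B were lost when any of 4 libraries was left out, while their log2 fold changes stayed at -0.60 to -0.51 and at 0.68 to 0.76. The adjusted p for TYMS and for RRM2B was 0.0792 and 0.0895 without untreated 2, 0.0779 and 0.0818 without untreated 3, 0.0725 and 0.0930 without sorafenib 2 and 0.0939 and 0.0871 without sorafenib 3, within 8.43e-05 to 0.0939 and 0.000279 to 0.0930 over 17 alternatives. TK1 was called under all 17. The number called among all genes, 775, was as unstable, with 1641, 149 and 153 without untreated 1, 2 and 3, 386 and 446 without oxaliplatin 1 and 2, and 1743, 139 and 113 without sorafenib 1, 2 and 3. The comparison shares its untreated libraries with that of oxaliplatin, so the values of both drugs are given side by side and nothing is read from their likeness.

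The drug groups were also compared directly, which tests whether the responses differed. UPP1 was lower in oxaliplatin than in sorafenib by a log2 fold change of -2.16 ± 0.18 (adjusted p = 0.000162) and DPYD higher by 1.46 ± 0.14 (adjusted p = 0.000431), and both were called under all 17 alternatives. These are 2 of 9 genes, against 10.3% of all genes (5.20% higher and 5.07% lower), and the groups did not overlap for 5 of the 9, against 34.9% of all genes. For the other 7 genes the difference was not called. DUT was nearest to the threshold with -0.60 ± 0.19 (adjusted p = 0.0745, 0.0416 with DESeq2). RRM2B differed by 0.24 (95% interval -0.08 to 0.56), TK1 by -0.21 (-0.51 to 0.08) and TYMS by -0.24 (-0.47 to -0.01, adjusted p = 0.167). The number called among all genes, 1659, became 572 and 723 without oxaliplatin 1 and 2 and 825, 956 and 787 without sorafenib 1, 2 and 3.

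Over 5 other lists of nucleotide metabolism, all but the transporters, 30 of 64 tested genes fell and 2 rose in oxaliplatin, where 15.5% of all genes were called lower and 16.2% higher. Of 8 genes of de novo pyrimidine synthesis 4 fell and none rose, with a median log2 fold change of -0.36. CTPS1, which makes CTP from UTP, was at 49.3 ± 7.25 CPM in oxaliplatin and 94.8 ± 18.1 CPM in untreated libraries (log2 fold change -0.94 ± 0.16, adjusted p = 0.00333). NME1 and NME2, nucleoside diphosphate kinase genes, had -1.51 ± 0.21 and -1.05 ± 0.23, but both share exons with the NME1-NME2 readthrough gene on the same strand and are uncertain. Of 9 tested salvage kinases 5 fell and none rose, with a median of -0.36, among them DTYMK, the next kinase after TYMS and TK1 on the way to dTTP (-0.74 ± 0.14, adjusted p = 0.00550), and UCK1, a uridine-cytidine kinase gene (-0.50 ± 0.15, adjusted p = 0.0309, called under 9 of 17 alternatives). Of 16 tested folate and one-carbon genes 5 fell and none rose, in all a share like the 31.7% of all genes called, with a median of -0.35, including genes of the mitochondrial enzymes MTHFD1L (-0.71 ± 0.12) and SHMT2 (-0.64 ± 0.16, called under 14 of 17) and the folate carrier SLC19A1 (-0.56 ± 0.11), whose exons overlap COL18A1 on the other strand. Of 16 purine genes 8 fell and none rose, with a median of -0.42, led by the salvage enzymes APRT (-0.96 ± 0.22) and HPRT1 (-0.73 ± 0.13) and by IMPDH1 (-0.63 ± 0.14), an enzyme of guanine nucleotide synthesis. The median over all genes was 0.016.

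Of 15 tested genes whose products break down nucleotides or clean the pool, 8 fell and 2 rose in oxaliplatin, against 15.5 and 16.2% of all genes, with a median log2 fold change of -0.53. The pair that rose were SAMHD1, a dNTP hydrolase, at 27.3 ± 2.21 against 16.4 ± 3.45 CPM (log2 fold change 0.73 ± 0.17, adjusted p = 0.00989, but 0.27 and adjusted p = 0.267 after correcting for GC and gene length), and NT5E, the surface nucleotidase CD73, at 36.0 ± 2.91 against 24.0 ± 2.97 CPM (0.58 ± 0.12, adjusted p = 0.00689). Exons of TLDC2 on the other strand cover 10.3% of the exon bases of SAMHD1. NUDT1, whose product hydrolyses oxidised nucleotides, had -1.50 ± 0.40 (adjusted p = 0.0211, called under 12 of 17 alternatives). Cytidine deaminase, CDA, was close to the limit of detection with 3, 2 and 3 counts in oxaliplatin, 4, 2 and 6 counts in sorafenib and 15, 21 and 20 counts in untreated libraries, and is counted among the genes that fell. It could pass the low-count filter only through the untreated libraries, so its lower level in the drug groups is given as a description. Of 6 tested transporters of nucleosides and nucleotides 3 rose in oxaliplatin and none fell: SLC29A4 (34.4 ± 1.75 against 17.2 ± 7.65 CPM, log2 fold change 1.00 ± 0.26, adjusted p = 0.0173, called under 15 of 17 alternatives), ABCC5 (0.74 ± 0.14), which exports nucleotide analogues, and ABCC4 (0.70 ± 0.14). Over the 17 alternatives, all of which called them, ABCC5 was at 0.37 to 0.87 and ABCC4 at 0.33 to 0.85.

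In sorafenib 2 of the same 64 genes fell, FOLR1 and CDA, and 2 rose, against 1.97 and 2.82% of all genes. CDA had only 4, 2 and 6 counts in sorafenib, and its lower level is a description, as above. FOLR1, a folate receptor gene, fell by 0.94 ± 0.23 on the log2 scale (adjusted p = 0.0479, called under 8 of 17 alternatives). Of the 6 tested transporters, which are not among the 64, 1 fell and none rose. It was the nucleoside transporter gene SLC29A1, which fell by 0.80 ± 0.19 (adjusted p = 0.0451, called under 6 of 17 and lost after correcting for GC and gene length). ADSS2, an enzyme of AMP synthesis, stood at 231 ± 7.80 CPM in oxaliplatin, 442 ± 15.4 CPM in sorafenib and 306 ± 35.7 CPM in untreated libraries. It was called lower in oxaliplatin (-0.41 ± 0.10, adjusted p = 0.0166) and higher in sorafenib (0.53 ± 0.10, adjusted p = 0.0265, called under 11 of 17 alternatives). NT5E rose to 80.0 ± 1.63 CPM in sorafenib, against 24.0 ± 2.97 CPM in untreated libraries (log2 fold change 1.74 ± 0.12, adjusted p = 0.000191).

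**Figure D4:**
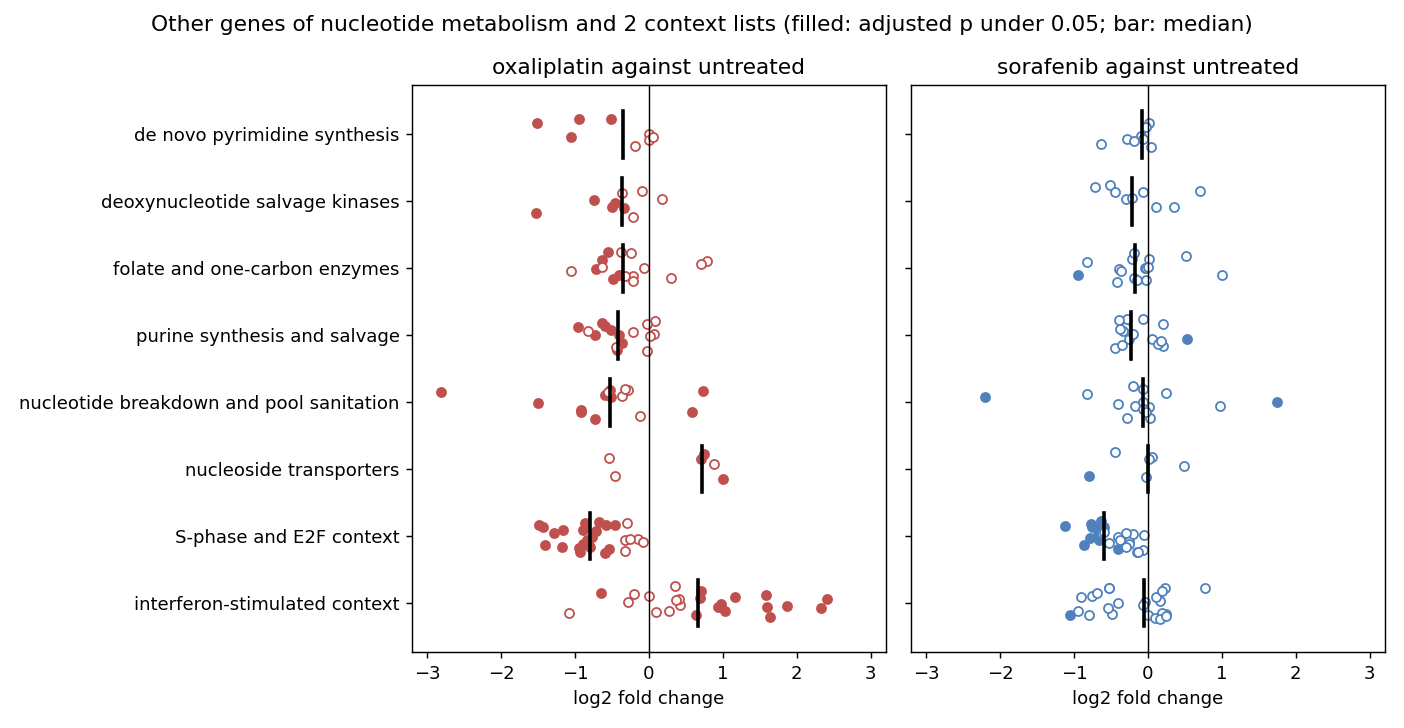
Log2 fold change (x axes) of each tested gene of 6 lists of nucleotide metabolism and 2 context lists (rows) for oxaliplatin against untreated (left) and sorafenib against untreated (right); filled points have an adjusted p under 0.05 and black bars are list medians. The S-phase list has its median at -0.80 in oxaliplatin and -0.59 in sorafenib.

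Other genes of the programmes that are known to drive these enzymes gave the following values. Of 27 tested S-phase and E2F target genes, which hold none of the 9, 21 fell and none rose in oxaliplatin (median log2 fold change -0.80), and 13 fell and none rose in sorafenib (median -0.59). Of all genes 15.5% were called lower in oxaliplatin and 1.97% in sorafenib. E2F1 itself was at 20.2 ± 2.21 CPM in oxaliplatin, 29.2 ± 3.06 CPM in sorafenib and 45.2 ± 4.00 CPM in untreated libraries (log2 fold changes -1.16 ± 0.13 and -0.63 ± 0.13, adjusted p = 0.00114 and 0.0309, the call in sorafenib holding under 10 of 17 alternatives). The helicase genes GINS2 and MCM5 and the licensing factor gene CDC6 fell in both drugs. Their calls in sorafenib held under 12, 13 and 16 of 17 alternatives. The part of this shift in the lower levels of TYMS, TK1, RRM1 and DUT was not tested. Interferon-stimulated genes, a class to which TYMP is often assigned, had 13 of 24 higher and 1 lower in oxaliplatin (median 0.66, DTX3L at 0.97 ± 0.12) and none higher and 2 lower in sorafenib (median -0.05, IRF1 at -0.53 ± 0.11 and ISG15 at -1.05 ± 0.25), while TYMP was not called in either. Higher calls made up 16.2% of all genes in oxaliplatin, and lower calls 1.97% in sorafenib, where IRF1 and ISG15 were called under 11 and 8 of 17 alternatives. Exons of C5orf56 on the other strand cover 22% of the exon bases of IRF1, which leaves its counts uncertain where strand was not used.

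The genes with the most like pattern were sought by the root mean square difference of log2 CPM over the 9 libraries, after each gene's own mean had been subtracted. For TYMS these were CHAF1B (0.068), a chromatin assembly factor gene, and the helicase gene MCM3 (0.073), where TYMS itself deviated from its mean by 0.348. For RRM1 they were CENPN (0.054), HSPD1 (0.063) and CCNA2 (0.064), against a deviation of 0.288 for RRM1. For RRM2B they were FAM8A1 (0.075), SBF2 (0.089) and CCDC186 (0.094), against 0.456. For DPYD they were FREM2 (0.094), the RNA sensor gene IFIH1 (0.128) and ZNF117 (0.141), against 0.752. UPP1 had no gene closer than ITPKA (0.255), followed by the ERK phosphatase gene DUSP5 (0.267), against 0.924, and DUSP5 had log2 fold changes of -0.97 in oxaliplatin and 0.97 in sorafenib. TK1 was closest to YJU2 (0.105), ACAT2 (0.106) and the cell cycle transcription factor gene MYBL2 (0.117), and DUT to ATF5 (0.138), RANBP1 (0.150) and GINS2 (0.158), against 0.531 for TK1 and 0.590 for DUT. The nearest genes to RRM2 and TYMP were CTU1 (0.129) and THAP3 (0.194), against 0.365 for RRM2 and 0.452 for TYMP.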

How the data were processed

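Messenger RNA libraries were counted per gene by the authors with featureCounts against GRCh38, and the deposited values are raw counts, per the submitters' processing notes, which also name DESeq2. The aligner, annotation release, strand setting and tool versions are not given in the sources used here.

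Counts were analysed with edgeR 4.0.16 in R 4.3.3. Genes passing filterByExpr (16159) were scaled by TMM factors (0.944 to 1.05) and fitted over all 9 libraries by the robust quasi-likelihood method, with a coefficient for each group. P-values were two-sided and adjusted over all genes tested (Benjamini-Hochberg, threshold 0.05). CPM use the TMM factors, SE is the log2 fold change over the root of F, and intervals are 95%. Exon lengths came from GENCODE release 29, since the count files hold none. These intervals rest on the spread between libraries, and the detection floor (3 counts) covers counting error only.

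The 9 genes and all lists were chosen with earlier results of these data known. Named list genes were the up to 3 highest and 3 lowest called per metabolic list and drug, and the 2 smallest adjusted p per context list and drug. Fixed names included ENOSF1, SCO2 and E2F1, and like patterns were ranked per gene. DPYS, UPB1 and NME1-NME2 were added after their values were seen. Some genes and a list that these rules name are not reported here.

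Libraries of a group differed by more than sampling noise (chi-square per degree of freedom 18.1 to 38.7), so none was treated as a second deposit of another, which does not show separate cultures. Same-numbered libraries did not deviate together (correlations of deviations -0.11 to 0.03), so no pairing by number was seen. With 3 libraries a group this cannot exclude a small effect shared by libraries of the same number. Alternatives were DESeq2 1.42.0, RLE factors, library size only, other filters, 2-group fits, a replicate block, a loess correction for GC content and length (span 0.5), and leaving out each library.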

Additional observations from a re-analysis of the deposited data

Results flagged for a closer look

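UPP1 and DPYD responded differently to the 2 drugs by the direct test of oxaliplatin against sorafenib. For UPP1 the log2 fold change between the drugs was -2.16 (edgeR's adjusted p = 0.000162), with 27.9 to 32.2 CPM in oxaliplatin, 123 to 149 CPM in sorafenib and 63.1 to 103 CPM in untreated libraries. For DPYD it was 1.46 (edgeR's adjusted p = 0.000431), with 46.6 to 52.5 CPM in oxaliplatin, 15.6 to 19.9 CPM in sorafenib and 13.7 to 17.6 CPM in untreated libraries.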

How the results depend on the processing

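In oxaliplatin against untreated, 7 of the 9 genes were called under all 17 alternatives, and the count over all genes, 5123, ran from 2913 to 5403 when single libraries were left out. The GC content and length correction made the log2 fold changes smaller for TK1 (-0.89), TYMS (-0.74), RRM2B (0.72) and DPYD (1.32). It made them larger in size for RRM1 (-0.78), DUT (-1.43) and UPP1 (-1.61). In sorafenib against untreated, the count over all genes, 775, became 1805 with DESeq2, 311 with 2 groups only, 184 with the replicate block, 1222 with the GC content and length correction, and 113 to 1743 when single libraries were left out. The count among the 9 genes, 3, became 6 with DESeq2, 1 with the replicate block, 5 with the GC content and length correction, and 1 to 5 when single libraries were left out. In oxaliplatin against sorafenib, the count over all genes, 1659, became 809 with the replicate block and 572 to 1949 when single libraries were left out. Under the replicate block TYMS and RRM2B lost their calls in sorafenib (adjusted p = 0.0719 each). No pairing by number was seen, but it was not excluded, so these calls depend on the model chosen.

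Some log2 fold changes near 0 changed sign. In sorafenib against untreated, RRM2, at -0.31 to 0.06 when single libraries were left out, was at 0.06 without untreated 3, sorafenib 2 or sorafenib 3. TYMP, at -0.52 to 0.22, was at 0.22 without untreated 1, 0.19 without sorafenib 2 and 0.01 without sorafenib 3 or with the GC content and length correction, and DPYD was at -0.01 with that correction. In oxaliplatin against sorafenib TYMP, at -0.60 to 0.11, was at 0.11 without sorafenib 1. The cause was not tested. Scaling by library size only shifted the median of all genes in oxaliplatin to 0.131, and the share of calls that were higher, 51.1%, was 65.4% with it and 35.5% with the GC content and length correction (58.8 and 39.9% for sorafenib with that correction, 50.6 and 64.2% for the drugs compared, with library size only). Among the lists, scaling by library size only lowered the calls in oxaliplatin from 5 to 3 salvage kinases and from 8 to 5 purine genes. Of all genes 5189 were called with that scaling, 65.4% of them higher, against 5123 and 51.1%, so lower calls were fewer among all genes as well. The GC content and length correction was applied to the lists after the data were seen. With it 8 folate genes and 10 purine genes were lower in oxaliplatin, against 5 and 8 without it. Of all genes 5171 were called with it, 35.5% of them higher, so lower calls were more frequent among all genes as well. The median log2 fold change of all genes went from 0.016 to -0.083. The correction also brought the median of the transporters in oxaliplatin from 0.72 to 0.35, with 3 called higher as before.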
